A study of Mus musculus with 9 samples.

Results

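The genes described here are those of glycolysis and of the response to low oxygen, followed in a mouse oral squamous cell line that had lost Csmd3. They were listed by symbol: 45 genes, of which 28 had a row of their own in the expression table and 17 had none. A gene was kept when its symbol occurred once and its mean over the 9 libraries was 1 FPKM or more, which left 26 of the listed genes among 6965 genes in all. FPKM divides the fragments of a gene by its transcript length and by the size of the library. Just inside the limit stood Gbe1 at a mean of 1.06 FPKM, and just outside it stood Ankrd37 at 0.987 FPKM. The other gene with a row under the limit was Pygl, at 0.149 FPKM. The 17 genes with no row were Gpi1, Pfkp, Pgk1, Eno2, Pdk1, Hif1a, Arnt, Vhl, Bnip3l, Car9, Ero1a, Kdm3a, Mxi1, Higd1a, Pgm1, G6pdx and Tkt, and they were not analysed here.

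The libraries fell into 3 groups of 3 replicates: ROC6 cells edited with guide 2 against Csmd3, ROC6 cells edited with guide 1 against Csmd3, and wild-type control ROC6 cells without the knockout. Csmd3 is a membrane protein built of many CUB and sushi domains. All groups were grown in the same serum-containing medium at the usual humidified carbon dioxide atmosphere, per the labels, with no low-oxygen group. The series describes each knockout as a clone, so each guide stands for 1 clone, and what is particular to a clone and what follows from the guide cannot be told apart. The labels do not say whether replicates were grown apart, so p-values reflect only how these libraries vary, which may be technical.

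Glycolysis turns glucose into pyruvate in a chain of cytosolic enzymes, which hexokinase opens, phosphofructokinase controls and pyruvate kinase closes. Pyruvate is then reduced to lactate by lactate dehydrogenase or enters the mitochondrion and is oxidised by the pyruvate dehydrogenase complex, which pyruvate dehydrogenase kinases switch off. Side branches lead to glycogen and to the pentose phosphate pathway. The hypoxia-inducible factors (HIF) induce many of these genes when oxygen is low. When oxygen is present, prolyl hydroxylases of the Egln family mark the HIF alpha subunits for degradation. Squamous carcinoma cells are known for high glycolysis and for hypoxic regions in tumours.

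Sums over uniquely named genes were similar in all libraries, and the steps between the lowest values put the depth of the libraries between 0.807 and 1.27 times that of control replicate 1. Absolute depth is unknown, since no counts were used. In 15441 of the 15446 uniquely named rows, and in all 28 rows of the listed genes, both knockout means deviated from the control mean in the same direction. That 2 clones share a sign is thus how these rows come, and no result is read from it. Genes whose knockouts deviated in opposite directions are almost absent from these rows. Whether this is why 17 listed genes have no row was not tested, and the counts below cover only genes with a row. Csmd3 was not analysed here, so the labels were not checked against the edited gene. Of 18 squamous epithelial markers, 8 had a row, and Krt5, Krt14, Trp63 and Cdh1 were not among them. The 8 summed to between 95.0 and 99.5 FPKM in guide 2 libraries, 116 and 126 FPKM in guide 1 libraries, and 80.1 and 88.4 FPKM in controls, most of it Perp. Of the markers of other cells, 3 of 10 fibroblast genes had a row and summed to 13.8 to 14.6 FPKM in guide 2 libraries, 8.81 to 12.2 FPKM in guide 1 libraries and 3.70 to 4.0 FPKM in controls. The 2 of 8 leukocyte markers with a row summed to at most 2.67 FPKM, the 2 of 6 endothelial markers to at most 0.714 FPKM, the 3 of 6 skeletal muscle markers to at most 0.134 FPKM, and the 1 of 6 erythroid markers to at most 0.438 FPKM. None of these markers was at 0 in all 9 libraries, and their part in the results below was not tested. In bulk RNA, fewer cells of a kind and less RNA per cell cannot be told apart.

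Among the 26 genes, 9 were enzymes between glucose and pyruvate: 7 were higher for the mean of both guides and 1 was lower. Beyond the 26 genes, Gapdh was tested and not called for this mean (limma adjusted p = 0.198), and Eno3 was higher (limma adjusted p = 2.17e-10). Of the 5 tested genes of lactate dehydrogenase, pyruvate dehydrogenase and its kinases, 4 were lower: Ldhb, Pdha1, Pdk2 and Pdk3. Pdk2 and Pdk3 are kinases that switch pyruvate dehydrogenase off. Called with each guide alone were fewer: of the 9 enzymes 5 were higher and Aldoc was lower, and of the 5 other genes Pdha1 and Pdk3 were lower. When the 6 knockout libraries were fitted as 1 group, Hk2, Pfkm and Ldhb lost their call for the mean (limma adjusted p = 0.11, 0.0784 and 0.121), as did Pfkfb4 (limma adjusted p = 0.0635). For the mean of both guides against control, 14 of the 26 genes were higher (53.8%) and 10 were lower (38.5%) at a limma adjusted p under 0.05. The background was high: of all tested genes 81.1% were called, 37.8% higher and 43.3% lower. The 26 genes were chosen with earlier results of these data known. The median log2 fold change of the 26 genes was 0.23, beside -0.08 over all genes. With guide 2 against control, 13 genes were higher and 7 lower (background 31.9% and 33.5%, together 65.4%). With guide 1 against control, 12 were higher and 10 lower (background 30.2% and 37.9%, together 68.1%). In 10 genes each guide was called higher (background 22.6%) and in 7 each was called lower (background 26.2%). In 11 genes all 6 knockout libraries lay above all 3 controls (background 24.7%), and in 7 they lay below them (background 29.0%). Both guide comparisons use the same 3 control libraries. A single SE applies to both guides of a gene, since the groups are equal in size and share 1 variance. All log2 fold changes are differences in log2(FPKM + 1), knockout minus control.

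**Figure D1:**
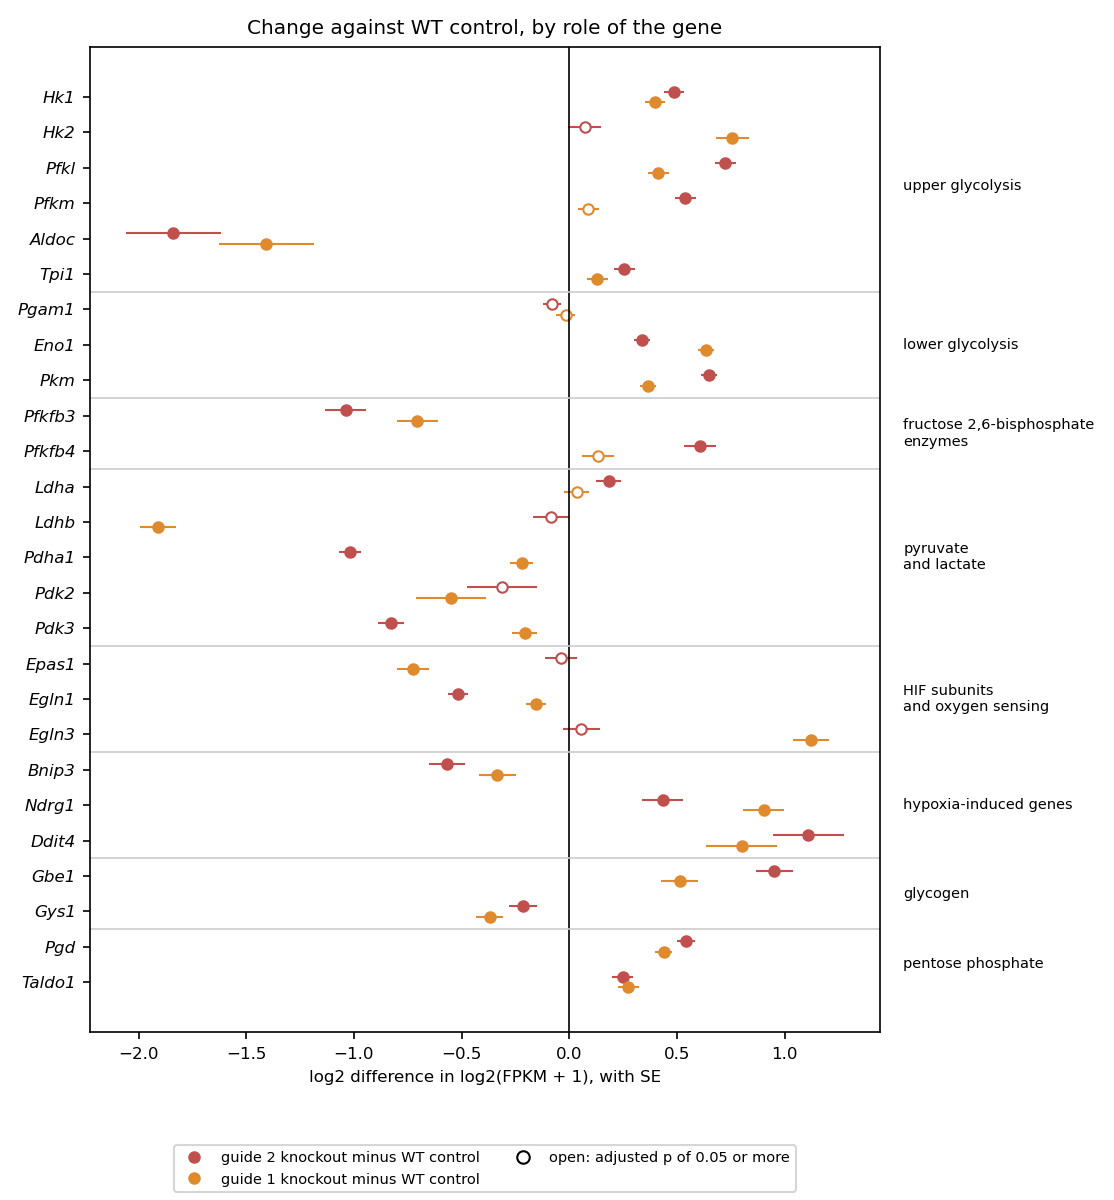
Log2 difference between each knockout and the WT control for the 26 genes, on the log2(FPKM + 1) scale, with the model's SE as horizontal lines; filled points passed at an adjusted p under 0.05 and open points did not. Genes are ordered by role. The enzymes of upper and lower glycolysis lie mostly right of 0, apart from Aldoc at -1.84 with guide 2 and -1.41 with guide 1 and Pgam1 close to 0. The pyruvate and lactate genes, which include the kinases Pdk2 and Pdk3, lie mostly left of 0.

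The promoters of the 3 genes with the largest increases and the 3 with the largest decreases that RefSeq's promoter table holds are shown, because HIF binds a short core that can be read in them. Each runs 5′ to 3′ on the gene's strand from 250 bases before to 50 bases after the first listed start, in GRCm38.p6. Capitals mark ACGTG and GCGTG, the cores of the HIF response element, searched on both strands, so that CACGT and CACGC are the same cores read backwards. The first 3 genes were higher for the mean of both guides: Ddit4 at chr10:59951721-59952020 on the minus strand, Gbe1 at chr16:70313699-70313998 on the plus strand, and Egln3 at chr12:54203825-54204124 on the minus strand. The last 3 were lower for this mean: Aldoc at chr11:78322823-78323122 on the plus strand, Ldhb at chr6:142507908-142508207 on the minus strand, and Pfkfb3 at chr2:11553880-11554179 on the minus strand. Egln3 and Ldhb passed with guide 1 only, with guide 2 log2 fold changes of 0.06 and -0.09 (limma adjusted p = 0.574 and 0.392).
Ddit4: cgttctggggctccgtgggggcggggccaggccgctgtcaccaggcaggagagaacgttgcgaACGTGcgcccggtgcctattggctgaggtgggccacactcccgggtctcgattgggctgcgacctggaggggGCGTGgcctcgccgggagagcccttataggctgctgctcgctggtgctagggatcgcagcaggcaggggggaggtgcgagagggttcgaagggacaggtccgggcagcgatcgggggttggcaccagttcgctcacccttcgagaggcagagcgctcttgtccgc
Gbe1: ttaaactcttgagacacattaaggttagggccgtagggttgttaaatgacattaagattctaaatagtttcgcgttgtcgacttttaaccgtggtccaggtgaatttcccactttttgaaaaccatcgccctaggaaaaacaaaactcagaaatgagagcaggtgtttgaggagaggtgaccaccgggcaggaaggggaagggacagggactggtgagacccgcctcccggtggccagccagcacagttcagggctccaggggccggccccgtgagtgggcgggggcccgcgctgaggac
Egln3: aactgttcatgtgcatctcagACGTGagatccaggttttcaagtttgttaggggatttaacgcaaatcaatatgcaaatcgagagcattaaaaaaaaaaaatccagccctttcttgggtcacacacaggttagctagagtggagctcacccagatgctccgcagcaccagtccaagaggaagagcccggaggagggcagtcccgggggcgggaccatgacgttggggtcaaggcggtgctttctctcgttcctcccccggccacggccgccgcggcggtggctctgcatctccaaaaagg
Aldoc: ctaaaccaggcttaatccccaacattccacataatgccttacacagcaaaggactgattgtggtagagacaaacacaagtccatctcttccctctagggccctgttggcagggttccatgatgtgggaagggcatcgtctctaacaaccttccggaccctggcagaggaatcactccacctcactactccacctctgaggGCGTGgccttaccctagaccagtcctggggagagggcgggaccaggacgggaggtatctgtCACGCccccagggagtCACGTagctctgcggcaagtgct
Ldhb: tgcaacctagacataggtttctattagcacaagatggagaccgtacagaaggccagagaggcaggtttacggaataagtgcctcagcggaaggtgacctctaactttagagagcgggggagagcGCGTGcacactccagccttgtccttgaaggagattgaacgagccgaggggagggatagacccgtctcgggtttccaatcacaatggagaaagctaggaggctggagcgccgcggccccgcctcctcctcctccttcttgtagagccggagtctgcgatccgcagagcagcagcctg
Pfkfb3: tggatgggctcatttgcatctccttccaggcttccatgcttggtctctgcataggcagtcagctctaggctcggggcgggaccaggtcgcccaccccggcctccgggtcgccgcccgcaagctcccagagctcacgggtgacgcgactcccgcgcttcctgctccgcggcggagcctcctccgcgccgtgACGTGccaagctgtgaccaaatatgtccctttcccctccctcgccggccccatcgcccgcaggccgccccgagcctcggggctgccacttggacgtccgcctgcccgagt

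Aldoc had 3 core matches, Ddit4 had 2, and Ldhb, Pfkfb3 and Egln3 had 1 each. Gbe1 had 0. In Aldoc a GCGTG lay 50 bases before the start, and in Pfkfb3 an ACGTG lay 60 bases before it. A core was therefore present in genes that were higher and in genes that were lower, also among those called with each guide (Ddit4, Aldoc and Pfkfb3). Of the 26 genes, 24 were matched by symbol, with 36 promoters between them; Ndrg1 and Epas1 were not matched. At least 1 core occurred in 28 of these 36 promoters (77.8%), in 63.6% of the promoters of all tested genes and in 43.8% of all 32851 promoters in the table. ACGTG alone occurred in 44.4%, 25.7% and 19.6% of them in that order. CACGTG, a longer motif that contains ACGTG, occurred in 13.9%, 9.80% and 7.15%. A match is a run of letters and not a measured binding site.

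Among the enzymes of upper glycolysis, 5 of 6 tested genes rose for the mean of both guides and 1 fell (background 37.8% and 43.3%). Hk1, the hexokinase isozyme of most tissues, stood at 21.2, 23.4 and 22.6 FPKM in guide 2 libraries, at 20.9, 21.0 and 20.9 FPKM in guide 1 libraries and at 16.0, 15.4 and 15.6 FPKM in controls. Both knockouts lay above every control, by 0.49 and 0.40 on the log2 scale for guide 2 and guide 1 (SE 0.0466, limma adjusted p = 7.15e-06 and 2.68e-05). Hk2, the inducible hexokinase of muscle and tumours, stood at 6.68, 7.50 and 8.49 FPKM with guide 2, 12.2, 13.0 and 12.9 FPKM with guide 1, and 7.02, 6.72 and 7.61 FPKM in controls. The guide 1 libraries were above all others, while the guide 2 libraries overlapped the controls. The log2 fold change was 0.07 with guide 2 (SE 0.0771, limma adjusted p = 0.434) and 0.76 with guide 1 (limma adjusted p = 9.02e-06), and the guides differed by -0.69 (limma adjusted p = 3.42e-05). As a share of summed hexokinase FPKM, Hk2 made up 25.2% ± 1.85 with guide 2, 37.8% ± 0.753 with guide 1 and 31.2% ± 1.41 in controls (SD, n = 3 each).

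The phosphofructokinases, the main control point of the chain, were higher to a greater extent with guide 2. Pfkl, the liver-type subunit, stood at 20.2, 20.7 and 20.5 FPKM with guide 2, 17.1, 15.9 and 15.9 FPKM with guide 1, and 12.1, 12.3 and 11.5 FPKM in controls. Its groups did not overlap, and it rose by 0.73 with guide 2 and 0.41 with guide 1 on the log2 scale (SE 0.0475, limma adjusted p = 4.15e-07 and 2.2e-05). Pfkm, the muscle-type subunit, stood at 25.0, 25.6 and 25.4 FPKM with guide 2, 18.7, 17.1 and 19.1 FPKM with guide 1, and 17.2, 17.1 and 17.1 FPKM in controls. It rose with guide 2 (log2 fold change 0.54, SE 0.0489, limma adjusted p = 4.74e-06), and with guide 1 its value of 0.09 did not pass (limma adjusted p = 0.135), with replicate 2 below every control and the other 2 libraries above them. Without guide 1 replicate 2 the value was 0.14 and passed (limma adjusted p = 0.0265), as it did at 0.13 under quantile normalization and under trimmed mean rescaling (limma adjusted p = 0.0185 and 0.0188).

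Further down, Aldoc, the brain-type aldolase, had the largest fall of the 26 genes for the mean of both guides. It stood at 0.388, 0.329 and 0.250 FPKM with guide 2, 0.742, 0.777 and 0.828 FPKM with guide 1, and 4.73, 5.12 and 2.00 FPKM in controls. All 6 knockout libraries lay below the controls, of which replicate 3 was far lower than the others. Aldoc passed the limit of 1 FPKM only through the controls, at a mean of 3.95 FPKM against 0.322 with guide 2 and 0.782 with guide 1. Its rank among the 26 genes therefore depends on that limit. The log2 fold changes were -1.84 with guide 2 and -1.41 with guide 1 (SE 0.219, limma adjusted p = 3.53e-05 and 0.000211), and -2.16 and -1.73 without control replicate 3. Aldoa, the main aldolase of most cells, has a repeated symbol and was not used here. Tpi1, triosephosphate isomerase, averaged 198 ± 11.7 FPKM with guide 2, 181 ± 5.65 FPKM with guide 1 and 166 ± 2.75 FPKM in controls (SD, n = 3 each). Both knockouts lay above all controls, and it passed with guide 2 (log2 fold change 0.26, limma adjusted p = 0.000948). With guide 1 it passed narrowly (log2 fold change 0.13, limma adjusted p = 0.0366), and that call was lost when replicate 1 or 3 of guide 1 or replicate 1 or 2 of the control was left out, with values from 0.10 to 0.14. It was also lost with no filter, with a constant prior variance and with p-values multiplied by 1.5 (limma adjusted p = 0.0708, 0.0606 and 0.0549).

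Of the lower enzymes, 2 of 3 tested genes rose and 0 fell for the mean of both guides (background 37.8% and 43.3%). Pkm, which encodes the pyruvate kinases of most cells and was the most abundant of the 26 genes, stood at 592, 598 and 586 FPKM with guide 2, 495, 479 and 485 FPKM with guide 1, and 381, 365 and 385 FPKM in controls. The groups were fully apart, guide 2 highest, with log2 fold changes of 0.65 and 0.37 for guide 2 and guide 1 (SE 0.0372, limma adjusted p = 1.51e-07 and 8.68e-06). Eno1, the common enolase, stood at 283, 278 and 278 FPKM with guide 2, 341, 342 and 347 FPKM with guide 1, and 219, 214 and 229 FPKM in controls. Here the guides changed places, guide 1 highest and controls again lowest. The log2 fold changes were 0.34 with guide 2 and 0.64 with guide 1 (SE 0.0383, limma adjusted p = 2.39e-05 and 1.72e-07). Pgam1, phosphoglycerate mutase, averaged 220 ± 1.29 FPKM with guide 2, 230 ± 8.65 FPKM with guide 1 and 233 ± 8.03 FPKM in controls, and passed with neither guide (log2 fold changes -0.08 and -0.02, limma adjusted p = 0.12 and 0.744). Its sign with guide 1 turned under quantile normalization and under trimmed mean rescaling. A pseudogene row, Pgam1-ps2, averaged 29.5 FPKM over the 9 libraries, so reads of Pgam1 may be divided between near-identical copies. Summed over the 9 tested enzymes of upper and lower glycolysis, the level was 1366 ± 14.0 FPKM with guide 2, 1311 ± 22.5 FPKM with guide 1 and 1053 ± 25.7 FPKM in controls (SD, n = 3 each), with Pkm, Eno1, Pgam1 and Tpi1 making up most of it.

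**Figure D2:**
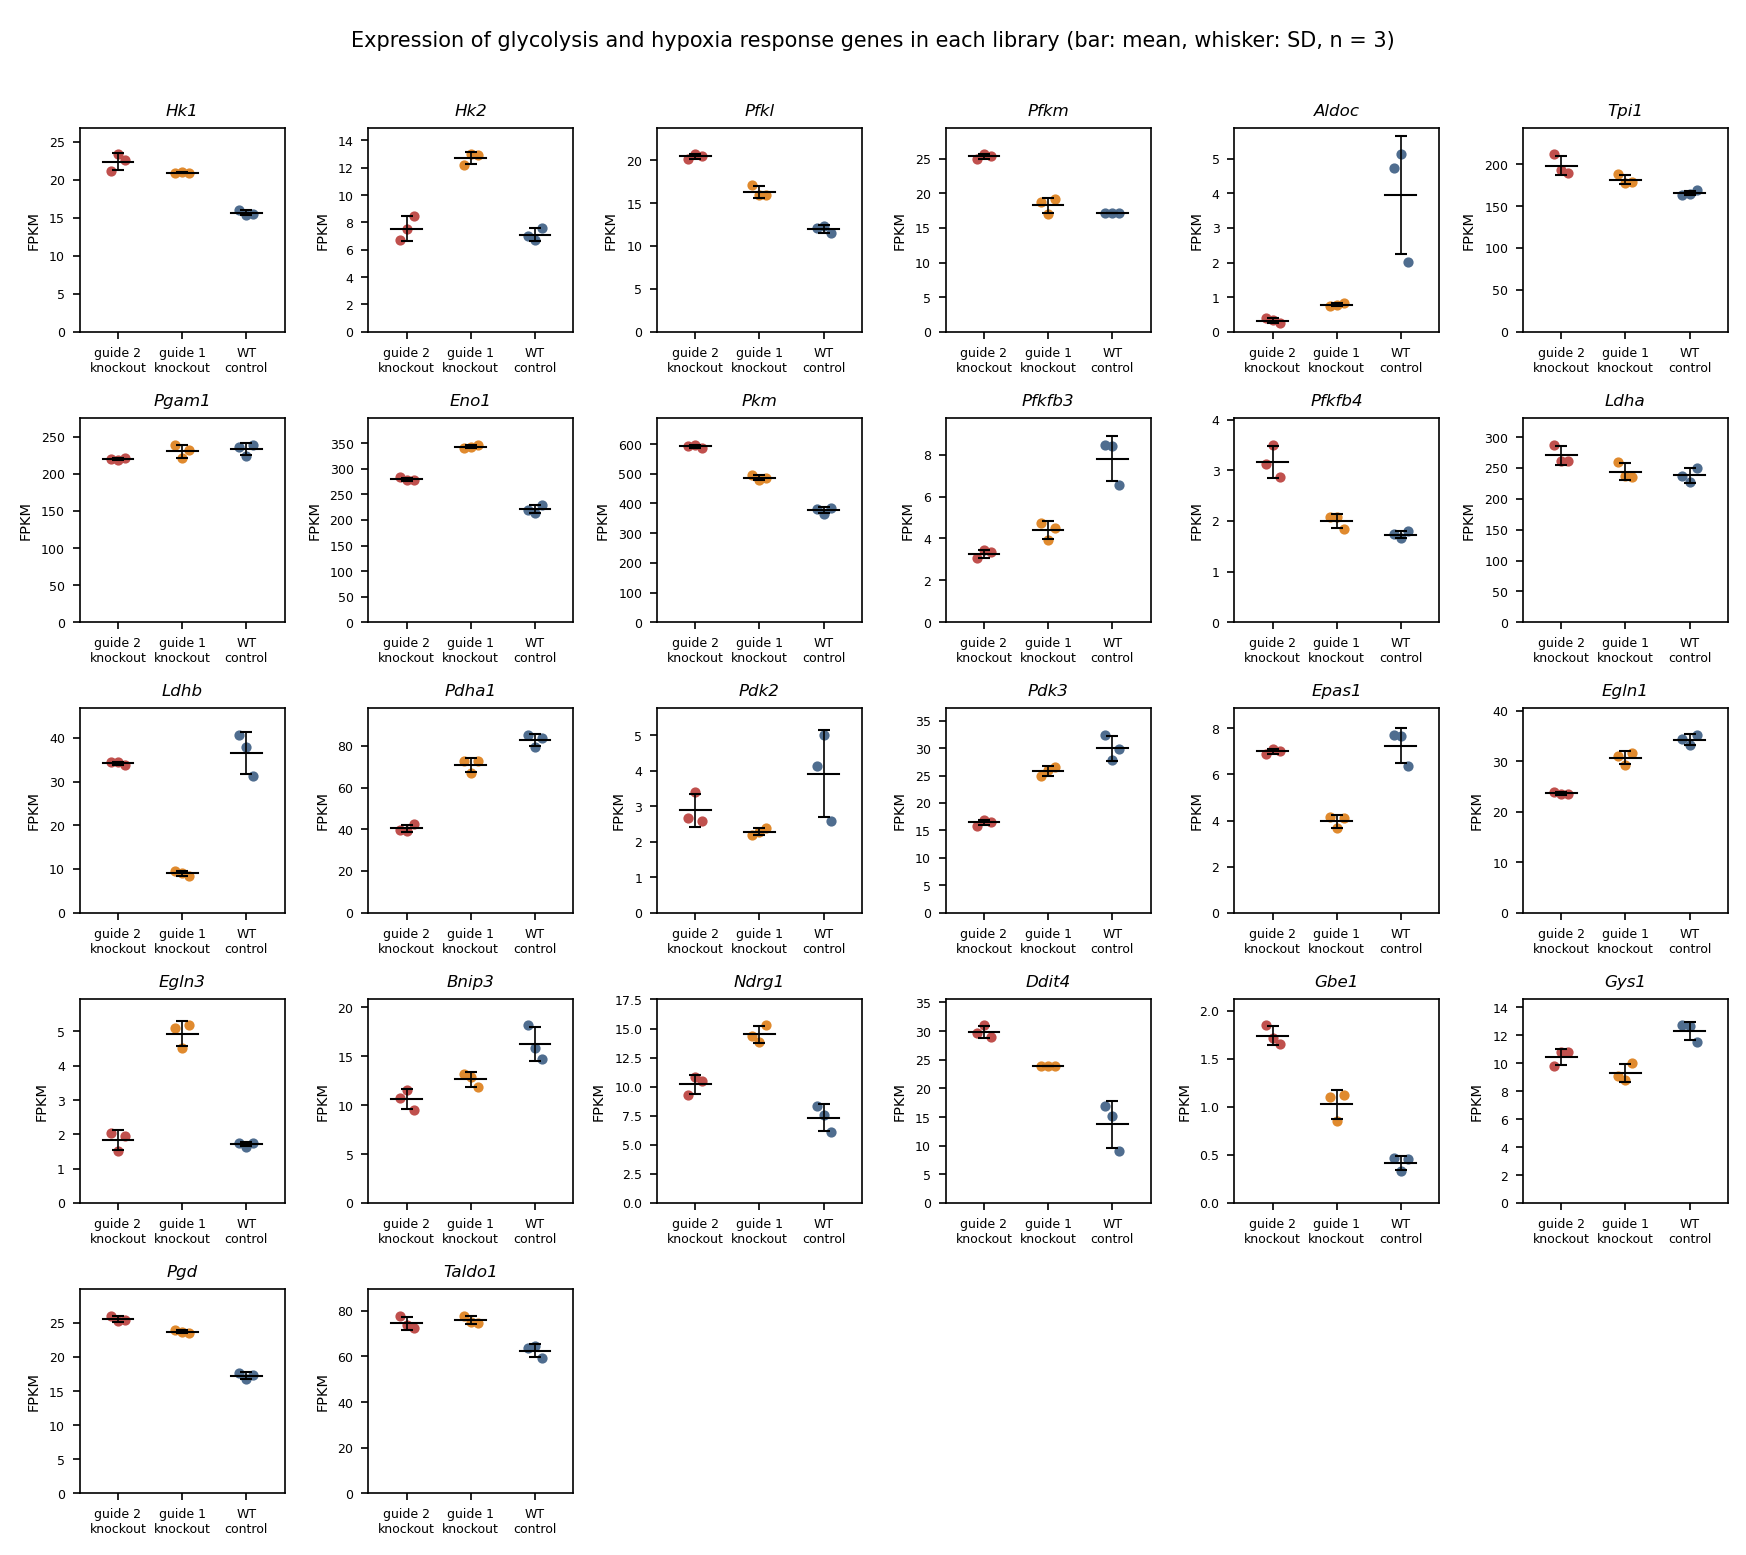
FPKM of each of the 26 genes in each of the 9 libraries, with guide 2 knockout, guide 1 knockout and WT control from left to right; points are libraries, bars are means and whiskers SDs (n = 3), and every axis starts at 0. Ldhb, Epas1, Egln3 and Hk2 set the guide 1 libraries apart, Pdha1, Pdk3 and Pfkm set the guide 2 libraries apart, and control replicate 3 lies away from the other controls in Aldoc, Pdk2 and Ddit4.

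The bifunctional enzymes that make and remove fructose 2,6-bisphosphate, the strongest activator of phosphofructokinase, went in opposite directions. Pfkfb3, the isoform with the highest kinase activity, stood at 3.05, 3.43 and 3.33 FPKM with guide 2, 4.73, 3.91 and 4.51 FPKM with guide 1, and 8.48, 8.40 and 6.57 FPKM in controls. All knockout libraries were below all controls. Its log2 fold changes were -1.04 with guide 2 and -0.71 with guide 1 (SE 0.0951, limma adjusted p = 5.02e-06 and 7.35e-05). Pfkfb4 stood at 3.12, 3.51 and 2.88 FPKM with guide 2, 2.07, 2.07 and 1.85 FPKM with guide 1, and 1.75, 1.65 and 1.79 FPKM in controls. All knockout libraries were above all controls, though guide 1 by little. It rose with guide 2 by 0.61 (SE 0.0739, limma adjusted p = 4.09e-05), and its value of 0.13 with guide 1 did not pass (limma adjusted p = 0.132). Pfkfb3 made up 50.9% ± 2.44 of their summed FPKM with guide 2, 68.6% ± 2.89 with guide 1 and 81.7% ± 2.73 in controls (SD, n = 3 each).

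At the end of the chain, 4 of 5 tested genes of lactate dehydrogenase, pyruvate dehydrogenase and its kinases fell for the mean of both guides and 0 rose. The background for this mean was 43.3% lower and 37.8% higher. Of the 4, Ldhb and Pdk2 passed with guide 1 only, and Pdk2 and Pdk3 are kinases that switch pyruvate dehydrogenase off. The largest difference between the clones lay here. Ldhb, the heart-type lactate dehydrogenase subunit, which favours the use of lactate, stood at 34.4, 34.4 and 33.8 FPKM with guide 2, 9.42, 9.06 and 8.39 FPKM with guide 1, and 40.6, 37.9 and 31.2 FPKM in controls. The guide 1 libraries were far below all others, and the guide 2 libraries lay inside the control range. The log2 fold change was -0.09 with guide 2 (SE 0.0843, limma adjusted p = 0.392) and -1.91 with guide 1 (limma adjusted p = 1.75e-08), and the guides differed by 1.82 (limma adjusted p = 5.79e-08). Without control replicate 3 the guide 2 value was -0.19 and passed (limma adjusted p = 0.0149). Ldha, the muscle-type subunit, which favours the making of lactate, averaged 270 ± 15.1 FPKM with guide 2, 244 ± 13.8 FPKM with guide 1 and 238 ± 12.0 FPKM in controls. It passed with guide 2 (log2 fold change 0.18, SE 0.059, limma adjusted p = 0.0189) and not with guide 1 (0.03, limma adjusted p = 0.617). The guide 2 call was lost when guide 2 replicate 1, control replicate 1 or control replicate 2 was left out, with values of 0.14, 0.18 and 0.15, and with no filter (limma adjusted p = 0.0582). For the mean of both guides Ldha did not pass (0.11, limma adjusted p = 0.0698), but did so without control replicate 3 (0.15, limma adjusted p = 0.0313), under quantile normalization (0.16, limma adjusted p = 0.00298) and under trimmed mean rescaling (0.14, limma adjusted p = 0.0421). Ldhb made up 11.2% ± 0.494 of the summed lactate dehydrogenase FPKM with guide 2, 3.55% ± 0.124 with guide 1 and 13.4% ± 1.99 in controls (SD, n = 3 each).

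Pdha1, the catalytic alpha subunit of pyruvate dehydrogenase, stood at 39.7, 39.1 and 42.5 FPKM with guide 2, 73.0, 67.0 and 72.8 FPKM with guide 1, and 85.2, 79.6 and 83.6 FPKM in controls. All groups were apart and guide 2 was lowest, at 48.8% of the control mean. Its log2 fold changes were -1.02 with guide 2 and -0.22 with guide 1 (SE 0.0518, limma adjusted p = 6.42e-08 and 0.0032). Pdk3, a kinase that inactivates this subunit, followed the same order: 15.8, 16.9 and 16.6 FPKM with guide 2, 24.9, 26.0 and 26.5 FPKM with guide 1, and 32.4, 27.8 and 29.8 FPKM in controls. It fell by 0.83 with guide 2 and 0.21 with guide 1 on the log2 scale (SE 0.0587, limma adjusted p = 7.33e-07 and 0.0096). The ratio of Pdha1 to Pdk3 FPKM was 2.46 ± 0.130 with guide 2, 2.75 ± 0.177 with guide 1 and 2.77 ± 0.122 in controls (SD, n = 3 each). The ratio of Pkm to Pdha1 FPKM was 14.7 ± 0.785 with guide 2, 6.87 ± 0.258 with guide 1 and 4.55 ± 0.0716 in controls. Pdk2, another such kinase, stood at 2.67, 3.41 and 2.58 FPKM with guide 2, 2.20, 2.28 and 2.39 FPKM with guide 1, and 4.15, 5.01 and 2.59 FPKM in controls. Guide 1 lay below all controls, and guide 2 overlapped them. It fell with guide 1 (-0.55, SE 0.161, limma adjusted p = 0.0115), and the guide 2 value of -0.31 did not pass (limma adjusted p = 0.112). The control values spread widely: without replicate 3 the guide 2 value was -0.52 and passed (limma adjusted p = 0.00204). For the mean of both guides Pdk2 was at -0.43 (limma adjusted p = 0.0158), a call lost without control replicate 1 (-0.38) or control replicate 2 (-0.27), or with no filter (limma adjusted p = 0.0559).

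**Figure D3:**
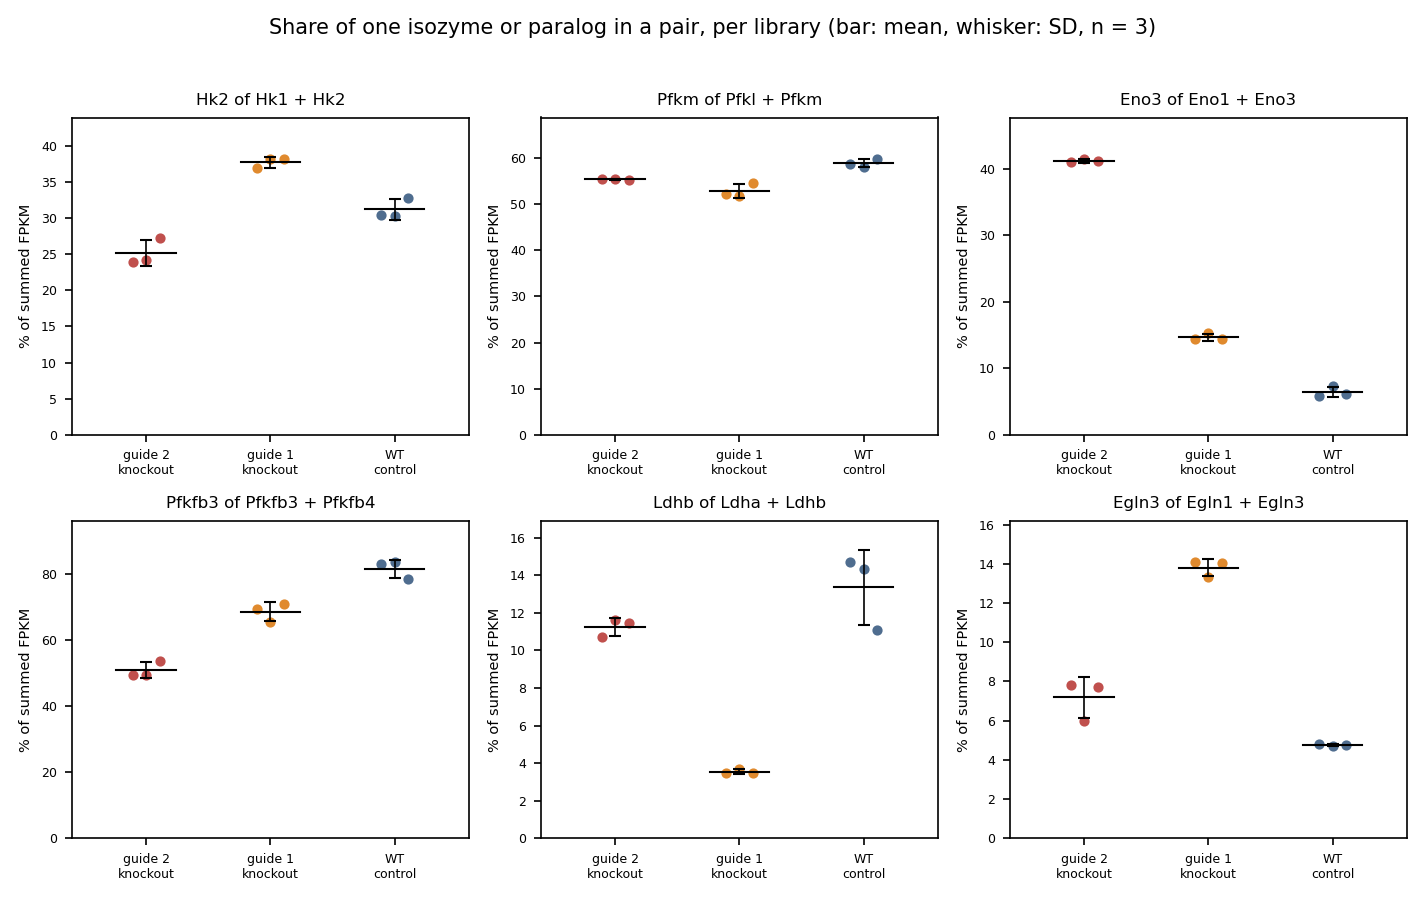
Share of the first-named gene in the summed FPKM of a pair, per library, for hexokinases, phosphofructokinases, enolases, fructose 2,6-bisphosphate enzymes, lactate dehydrogenases and prolyl hydroxylases; bars are means and whiskers SDs (n = 3), and every axis starts at 0. The Eno3 share was 41.2% with guide 2, 14.7% with guide 1 and 6.46% in controls, and the Ldhb share was 3.55% with guide 1 against 13.4% in controls.

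Of the HIF subunits and their oxygen sensors, only Epas1, Egln1 and Egln3 had a row. For the mean of both guides 2 fell and 1 rose (background 43.3% and 37.8%). With the knockout libraries as 1 group, Epas1 and Egln3 no longer passed (limma adjusted p = 0.130 and 0.124), which left Egln1, the gene of the 3 that was called with each guide. Epas1, which encodes the HIF-2 alpha subunit, stood at 6.90, 7.13 and 7.01 FPKM with guide 2, 4.16, 3.65 and 4.10 FPKM with guide 1, and 7.71, 7.65 and 6.36 FPKM in controls. Guide 1 was below all other libraries and guide 2 lay inside the control range. Its log2 fold change was -0.73 with guide 1 (SE 0.0737, limma adjusted p = 8.79e-06) and -0.04 with guide 2 (limma adjusted p = 0.673), a difference between guides of 0.69 (limma adjusted p = 2.38e-05). Egln3, a prolyl hydroxylase that HIF itself induces, stood at 2.03, 1.51 and 1.96 FPKM with guide 2, 5.10, 4.51 and 5.17 FPKM with guide 1, and 1.75, 1.64 and 1.76 FPKM in controls. It rose with guide 1 by 1.12 (SE 0.0847, limma adjusted p = 9.34e-07), while guide 2 overlapped the controls at 0.06 (limma adjusted p = 0.574), and the guides differed by -1.07 (limma adjusted p = 2.93e-06). Egln1, the main oxygen sensor of most cells, stood at 24.0, 23.6 and 23.4 FPKM with guide 2, 31.1, 29.3 and 31.7 FPKM with guide 1, and 34.5, 33.2 and 35.2 FPKM in controls. It fell in both, by 0.52 with guide 2 and 0.16 with guide 1 on the log2 scale (SE 0.0454, limma adjusted p = 3.67e-06 and 0.0113). Egln3 was the lesser of the pair in every group, at 7.18% ± 1.02 of their summed FPKM with guide 2, 13.8% ± 0.411 with guide 1 and 4.77% ± 0.0536 in controls (SD, n = 3 each).

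The hypoxia-induced genes did not move together: of 10 listed, 3 were tested. With each guide Ndrg1 and Ddit4 rose and Bnip3 fell (background 22.6% and 26.2%). Ddit4, an inhibitor of mTORC1 signalling induced by several stresses, stood at 29.6, 31.0 and 29.0 FPKM with guide 2, 24.0, 23.9 and 23.9 FPKM with guide 1, and 16.9, 15.2 and 9.12 FPKM in controls. All knockout libraries were above all controls, with log2 fold changes of 1.11 and 0.80 for guide 2 and guide 1 (SE 0.165, limma adjusted p = 0.000178 and 0.00142). Without control replicate 3, the lowest of them, these were 0.86 and 0.55. Ndrg1, a stress-responsive gene linked to differentiation, stood at 9.31, 10.8 and 10.5 FPKM with guide 2, 14.3, 13.9 and 15.3 FPKM with guide 1, and 8.33, 7.60 and 6.07 FPKM in controls. The groups were apart, guide 1 highest, at 0.43 and 0.90 for guide 2 and guide 1 (SE 0.0963, limma adjusted p = 0.00254 and 1.29e-05). Bnip3, a mitochondrial protein that promotes mitophagy and a common HIF target, stood at 10.8, 11.5 and 9.55 FPKM with guide 2, 13.2, 12.9 and 11.8 FPKM with guide 1, and 18.2, 15.8 and 14.7 FPKM in controls. It lay below every control in both knockouts, at -0.57 and -0.33 (SE 0.0852, limma adjusted p = 0.000189 and 0.00534). Ankrd37, under the filter and so untested, stood at 1.30, 1.35 and 1.35 FPKM with guide 2, 0.546, 1.25 and 1.07 FPKM with guide 1, and 0.611, 0.459 and 0.961 FPKM in controls.

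In the glycogen branch, 1 tested gene rose and 1 fell with each guide (background 22.6% and 26.2%). Gbe1, the glycogen branching enzyme, stood at 1.85, 1.72 and 1.66 FPKM with guide 2, 1.11, 0.850 and 1.12 FPKM with guide 1, and 0.464, 0.333 and 0.455 FPKM in controls. It passed the limit of 1 FPKM only through the knockout libraries, since its control mean was 0.417 FPKM. The groups were apart in this order, at 4.17 times and 2.46 times the control mean, and 0.95 and 0.51 on the log2(FPKM + 1) scale, which understates changes of low values (SE 0.0862, limma adjusted p = 4.55e-06 and 0.000358). Gys1, the glycogen synthase of most tissues, averaged 10.5 ± 0.577 FPKM with guide 2, 9.30 ± 0.617 FPKM with guide 1 and 12.3 ± 0.671 FPKM in controls (SD, n = 3 each). It fell by 0.22 with guide 2 and 0.37 with guide 1 on the log2 scale (SE 0.0638, limma adjusted p = 0.0127 and 0.000443). Pygl, the liver-type glycogen phosphorylase, was untested; it is listed at 0 for every guide 2 library, and stood at 0.125, 0.168 and 0.142 FPKM with guide 1 and 0.357, 0.342 and 0.212 FPKM in controls.

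The pentose phosphate branch supplies NADPH and ribose, and both of its tested genes rose with each guide (background 22.6%). Pgd, 6-phosphogluconate dehydrogenase, stood at 26.0, 25.3 and 25.4 FPKM with guide 2, 23.9, 23.7 and 23.6 FPKM with guide 1, and 17.7, 16.7 and 17.3 FPKM in controls. Both knockouts lay above all controls, at log2 fold changes of 0.54 and 0.44 for guide 2 and guide 1 (SE 0.0411, limma adjusted p = 1.2e-06 and 4.93e-06). Taldo1, transaldolase, averaged 74.4 ± 2.73 FPKM with guide 2, 75.8 ± 1.74 FPKM with guide 1 and 62.5 ± 2.83 FPKM in controls (SD, n = 3 each). Its log2 fold changes were 0.25 and 0.28 (SE 0.0474, limma adjusted p = 0.000971 and 0.000435), and the difference between guides of -0.03 missed the threshold (limma adjusted p = 0.671).

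Guide 2 against guide 1 tests the difference between the clones, and the control cancels in that difference. It does not cancel in the choice of rows, since nearly all have both knockout means on one side of it. No allowance for that choice was made in this comparison. Of the 26 genes 8 were higher with guide 2 and 9 were lower (background 31.2% and 23.3%, together 54.5%), with a median of 0.10 beside 0.04 over all genes. The genes higher with guide 2 were Ldhb, Epas1, Pfkfb4, Pfkm, Gbe1, Pfkl, Pkm and Tpi1. Those lower with guide 2 were Egln3, Pdha1, Hk2, Pdk3, Ndrg1, Egln1, Pfkfb3, Eno1 and Bnip3. Of the glycolysis enzymes, Hk2 and Eno1 were higher with guide 1, and Pfkl, Pfkm, Tpi1 and Pkm with guide 2. For the remaining 9 genes the test did not pass. Bnip3 (-0.23, limma adjusted p = 0.0391) and Tpi1 (0.13, limma adjusted p = 0.0482) were close to the limit. The Bnip3 call was lost without replicate 1 or 2 of guide 1, replicate 1 or 3 of guide 2 or control replicate 2, with values from -0.17 to -0.24, and with no filter (limma adjusted p = 0.101). The Tpi1 call was lost when any library other than guide 1 replicate 1, guide 2 replicate 3 or control replicate 3 was left out, with values from 0.08 to 0.14. It was also lost with no filter, under trimmed mean rescaling, with a constant prior variance and with only the libraries compared (limma adjusted p = 0.0981, 0.154, 0.0775 and 0.0677). Pfkfb3 lost its call without guide 1 replicate 1 (-0.29). Without control replicate 3, which shares in the estimate of the spread, Aldoc, Ddit4 and Ldha passed at -0.43, 0.31 and 0.15. Ldha also passed without guide 1 replicate 1, Gys1 without guide 1 replicate 3 or guide 2 replicate 1, and Hk1 without guide 2 replicate 1, at 0.20, 0.20, 0.20 and 0.13. Under other settings, Ldha passed with a filter of 5 FPKM, quantile normalization or the replicate block, Aldoc with a pseudocount of 0.1 (-1.07) or only the libraries compared, Ddit4 with only the libraries compared, and Pgd with no filter.

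Other genes of the same pathways were taken from a list of 125, chosen with earlier results of these data known. Of the 125, 72 had a row and 60 were tested. For the mean of both guides 23 of them rose (38.3%, background 37.8%) and 31 fell (51.7%, background 43.3%), with a median of -0.13 beside -0.08 over all genes. With guide 2 against control 19 rose (31.7%, background 31.9%) and 22 fell (36.7%, background 33.5%). With guide 1 against control 20 rose (33.3%, background 30.2%) and 25 fell (41.7%, background 37.9%). These shares lie near the background, and the counts of the single lists below, of 5 to 20 genes each, are to be read against the same background. Among 5 glucose, lactate and pyruvate transport genes 2 rose and 3 fell. Slc2a1, the main glucose transporter of most cultured cells, stood at 27.6, 28.4 and 29.4 FPKM with guide 2, 23.2, 22.6 and 22.9 FPKM with guide 1, and 14.3, 14.5 and 14.7 FPKM in controls, and rose by 0.93 and 0.63 on the log2 scale (SE 0.0419, limma adjusted p = 2.76e-08 and 3.78e-07). Mpc1, a subunit of the mitochondrial pyruvate carrier, stood at 15.5, 13.1 and 14.7 FPKM with guide 2, 6.78, 5.82 and 5.65 FPKM with guide 1, and 15.1, 16.2 and 14.3 FPKM in controls. Like Ldhb, it was low in the guide 1 libraries, at -1.19 (SE 0.0797, limma adjusted p = 3.73e-07), while the guide 2 value of -0.07 did not pass (limma adjusted p = 0.467).

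On the log2(FPKM + 1) scale, which understates changes of low genes such as Vldlr, the largest change on these lists was in Eno3, the muscle-type enolase. It stood at 197, 197 and 194 FPKM with guide 2, 57.4, 61.6 and 58.2 FPKM with guide 1, and 13.6, 17.0 and 15.1 FPKM in controls. The groups were far apart, with log2 fold changes of 3.61 and 1.89 (SE 0.069, limma adjusted p = 1.29e-10 and 4.22e-09). Eno3 made up 41.2% ± 0.260 of the summed FPKM of Eno1 and Eno3 with guide 2, 14.7% ± 0.503 with guide 1 and 6.46% ± 0.808 in controls (SD, n = 3 each). The skeletal muscle markers with a row, Ckm, Actn2 and Myh3, summed to at most 0.00765 FPKM with guide 2, 0.0213 FPKM with guide 1 and 0.134 FPKM in controls. Of the 7 tested genes on the list of other glycolysis enzymes 3 rose (Bpgm, Eno3 and Gpd2) and 3 fell (Pgam5, Pfkfb2 and Tigar). Of these genes only Eno3 is an enzyme of the chain from glucose to pyruvate. Pfkfb2, a further fructose 2,6-bisphosphate enzyme, was at -0.35 with guide 2 and -0.59 with guide 1.

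Of the 7 other pyruvate dehydrogenase genes, 1 rose and 6 fell for the mean of both guides. Pdp1, a phosphatase that reactivates the complex, stood at 6.07, 6.13 and 5.62 FPKM with guide 2, 2.84, 2.77 and 3.11 FPKM with guide 1, and 12.3, 11.1 and 9.39 FPKM in controls. Pdk4, a kinase that inactivates it, stood at 0.891, 1.37 and 0.955 FPKM with guide 2, 2.35, 2.10 and 2.14 FPKM with guide 1, and 0.517, 0.447 and 0.315 FPKM in controls. Pdk4 passed the limit of 1 FPKM only through the knockout libraries, since its control mean was 0.426 FPKM. The kinase rose by 0.53 and 1.17 and the phosphatase fell by 0.77 and 1.60 with guide 2 and guide 1 on the log2 scale. All of these passed (limma adjusted p = 0.00101, 3.03e-06, 2.11e-05 and 7.12e-08 in that order). The guide 1 libraries were the more extreme in both genes, and the guides differed by -0.63 for Pdk4 and 0.83 for Pdp1 (limma adjusted p = 0.000443 and 1.96e-05).

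Of 7 other HIF regulators 4 rose and 2 fell, and of 20 other hypoxia-induced genes 12 rose and 7 fell for the mean of both guides. Cited2, which competes with HIF-1 alpha for the coactivators Crebbp and Ep300, stood at 24.9, 25.1 and 28.2 FPKM with guide 2, 82.0, 82.1 and 85.9 FPKM with guide 1, and 14.7, 14.5 and 17.1 FPKM in controls. It rose by 0.72 with guide 2 and 2.36 with guide 1 (SE 0.0696, limma adjusted p = 7.52e-06 and 1.01e-09). Cul2, the cullin of the VHL ubiquitin ligase, had a guide 2 value of -0.05 (limma adjusted p = 0.408, not passed), and fell by 0.40 with guide 1 (limma adjusted p = 8.14e-05). Vldlr, a lipoprotein receptor, had the largest rise of the hypoxia-induced genes on the same scale, at 2.37, 2.99 and 2.75 FPKM with guide 2, 3.63, 3.77 and 3.86 FPKM with guide 1, and 0.300, 0.206 and 0.183 FPKM in controls. It passed the limit of 1 FPKM only through the knockout libraries, since its control mean was 0.230 FPKM. Its rank therefore depends on that limit. Lox, the lysyl oxidase that crosslinks collagen, had the largest fall, at 113, 126 and 125 FPKM with guide 2, 117, 116 and 130 FPKM with guide 1, and 279, 256 and 208 FPKM in controls. Both passed with each guide, Vldlr at 1.59 and 1.95 and Lox at -1.01 and -1.02 (limma adjusted p at most 7.76e-06). As among the 26 genes, the hypoxia-induced genes went both ways. Of the 20, 9 were called higher with each guide and 3 lower (background 22.6% and 26.2%). Their median for the mean of both guides was 0.29, beside -0.08 over all genes.

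Of 9 other glycogen genes 1 rose and 6 fell, and of 5 other pentose phosphate genes 0 rose and 4 fell for the mean of both guides. Ugp2, which makes UDP-glucose for glycogen, stood at 29.4, 29.2 and 30.2 FPKM with guide 2, 50.0, 46.9 and 47.8 FPKM with guide 1, and 65.9, 62.8 and 59.1 FPKM in controls, and fell by 1.05 and 0.37 (SE 0.0493, limma adjusted p = 3.42e-08 and 6.99e-05). Stbd1, a glycogen-binding protein, rose with guide 1 (0.89, limma adjusted p = 0.000127), and its value with guide 2 was 0.07 (limma adjusted p = 0.673). Prps1, which turns ribose phosphate into the precursor of nucleotides, stood at 18.3, 18.6 and 21.2 FPKM with guide 2, 23.4, 21.9 and 23.5 FPKM with guide 1, and 32.4, 33.0 and 33.1 FPKM in controls. It fell by 0.73 and 0.50 on the log2 scale (SE 0.0579, limma adjusted p = 1.63e-06 and 2.37e-05), unlike Pgd and Taldo1 of the same branch, which rose.

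**Figure D4:**
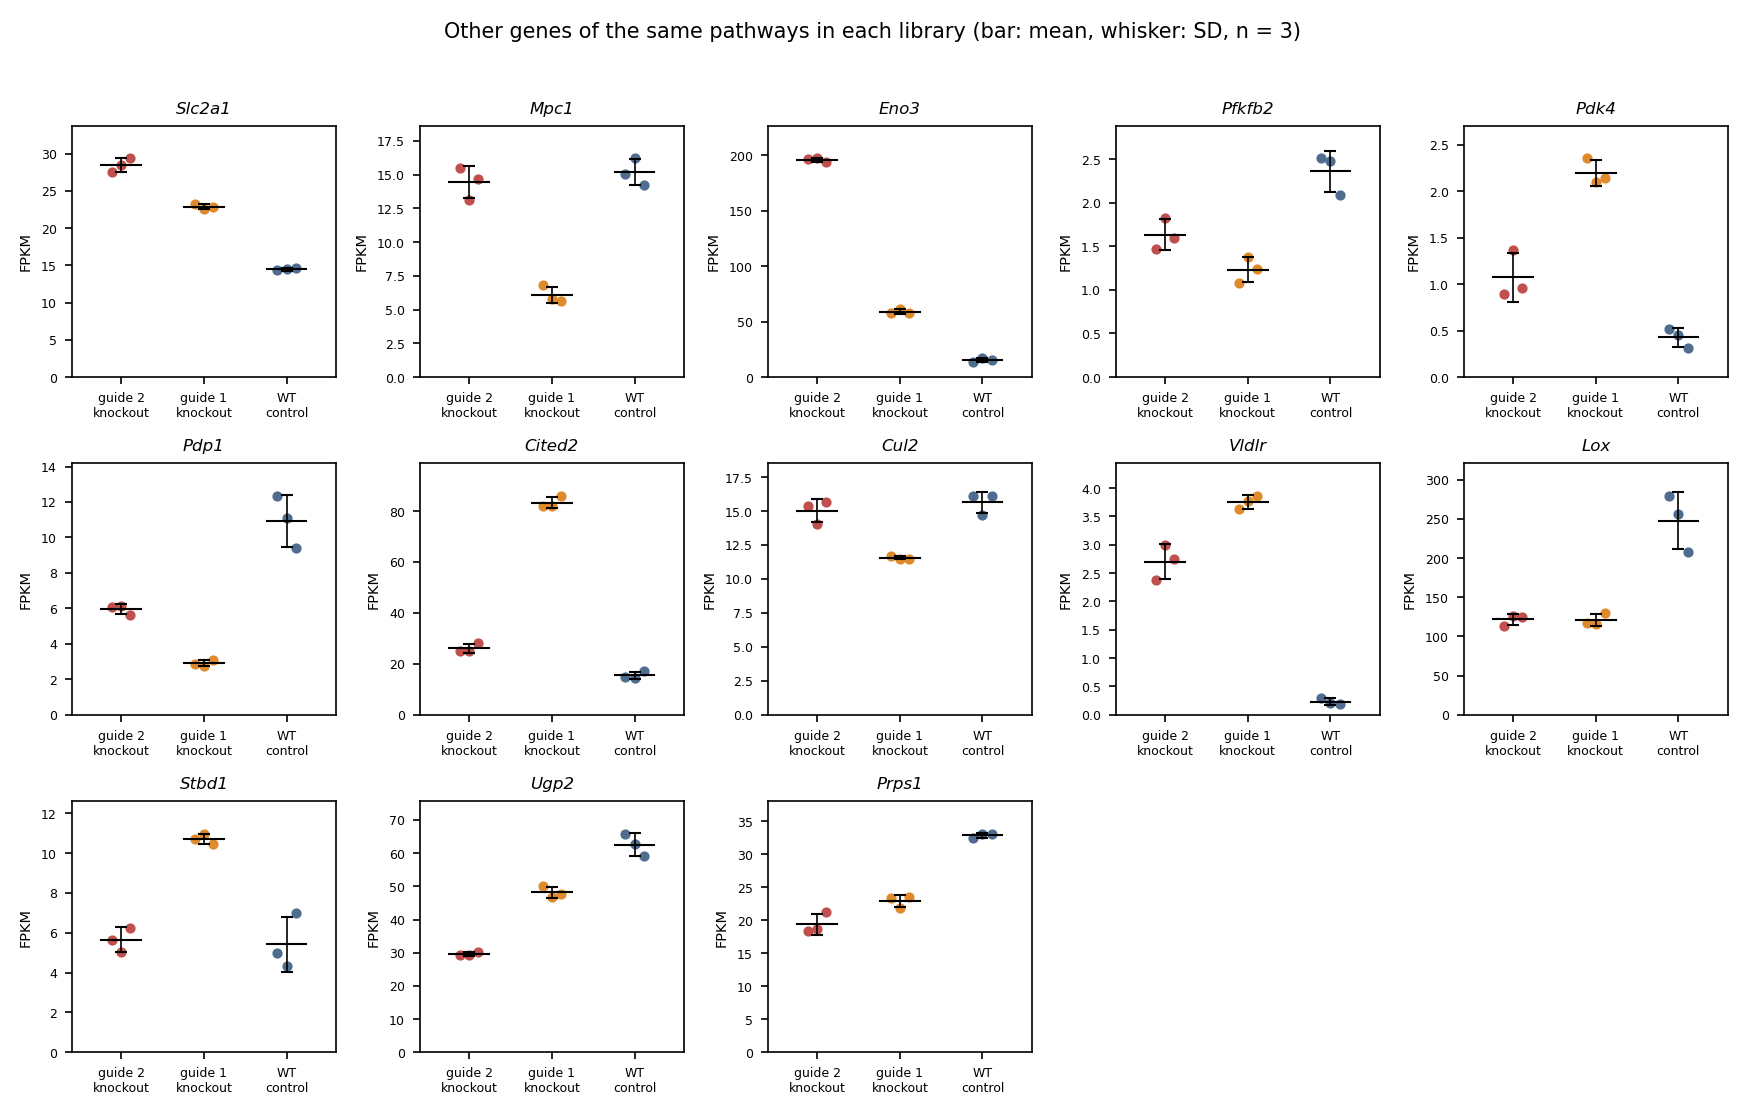
FPKM in each of the 9 libraries for the genes with the largest rise or fall on each list of other pathway genes, with guide 2 knockout, guide 1 knockout and WT control from left to right; points are libraries, bars are means and whiskers SDs (n = 3), and every axis starts at 0. Eno3 lies at 194 to 197 FPKM with guide 2, against 13.6 to 17.0 FPKM in controls, and Cited2 lies at 82.0 to 85.9 FPKM with guide 1, against 14.5 to 17.1 FPKM in controls.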

How the data were processed

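Per the labels' protocols, poly(A) RNA of ROC6 cells went into strand-specific libraries that were read from both ends. The authors deposited FPKM values per gene and library; the tools credited in the submitters' processing notes are HISAT2, StringTie, cutadapt and FastQC. Tool versions, build and gene models: not given in the sources used here. Groups and replicate numbers come from the sample titles. Other columns of per-sample values numbered 0. Of 15620 rows, 174 that share 62 symbols were left out. Of the 15446 others, 8481 with a mean under 1 FPKM were not tested.

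Values were analysed as log2(FPKM + 1), with a pseudocount of 1, in limma 3.58.1 (R 4.3.3) with all 9 libraries in 1 model, a prior variance that follows the mean, and Benjamini-Hochberg adjustment over 6965 genes, and called under 0.05. No list was tested as a set: lists are described by counts and medians. The members and lists were chosen with earlier results of these data known. Values per library are given for genes called for the mean of both guides and changed by 0.5 log2 units or more with either guide, and for the gene with the largest change where a role had none. Isozyme partners were added, and from each other list the largest called gene in each direction.

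Relative depth was read from the commonest ratio between libraries of values under 0.1 FPKM, within 0.5 log2 units of equal depth; 9 to 32 genes shared it. In simulated data made from the 6965 genes, 200 of them changed by 0.5 log2 units, 81.5% of changes were recovered for guide 2 against control, 83.0% for guide 1 against control, 90.5% for the mean of both guides and 80.0% for guide 2 against guide 1. Of the calls made, 2.98%, 2.92%, 6.22% and 5.33% were false in the same order, so that 2 of the 4 comparisons exceeded 5%. The data differ from this setting: 65.4% to 81.1% of genes were called against control, and nearly all rows have both knockouts on one side of it. Neither was simulated, so these shares do not describe the calls made here. Other settings tried were quantile normalization, rescaling by means from which 30% was trimmed at either end, a constant prior variance, a pseudocount of 0.1, a limit of 5 FPKM or none, the replicate number as a block, a fit of only the libraries compared, p-values multiplied by 1.5 for rows chosen by side, and each library left out.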

Additional observations from a re-analysis of the deposited data

Results flagged for a closer look

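Levels differed between the knockout clones in 17 of the 26 genes, by the test of guide 2 against guide 1 (limma adjusted p under 0.05, where 54.5% of all tested genes passed). Genes whose level was higher with guide 2 were Ldhb, at a log2 difference of 1.82, Epas1 at 0.69, Pfkfb4 at 0.47, Pfkm at 0.45, Gbe1 at 0.44, Pfkl at 0.31, Pkm at 0.28 and Tpi1 at 0.13. Genes whose level was lower with guide 2 were Egln3, at a log2 difference of -1.07, Pdha1 at -0.80, Hk2 at -0.69, Pdk3 at -0.62, Ndrg1 at -0.47, Egln1 at -0.36, Pfkfb3 at -0.33, Eno1 at -0.30 and Bnip3 at -0.23. In Ldhb, Epas1, Egln3 and Hk2 the guide 1 libraries differed from the control and the guide 2 libraries did not pass the test against it. Each guide is 1 clone, so a difference in the effect of the knockout, a difference between guides and a difference between clones cannot be told apart.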

How the results depend on the processing

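Counts of the 26 genes called stayed within 1.5 times their value under every alternative run. Leaving out each library in turn gave 12 to 13 genes higher and 7 to 9 lower for guide 2 against control, 11 to 13 higher and 10 lower for guide 1 against control, 14 to 15 and 9 to 10 for the mean of both guides, and 7 to 10 and 7 to 10 for guide 2 against guide 1. Over all genes, 5649 were called for the mean of both guides, against 3642 when the 6 knockout libraries were fitted as 1 group, which adds the guide difference to the spread. In that fit Hk2, Pfkm, Pfkfb4, Ldhb, Epas1 and Egln3 no longer passed. Of 890 single values under 9 other settings 860 kept direction and call, and of 936 with a library left out 899 did. Signs turned only in values that had not passed. Pgam1 was 0.0635 with guide 1 under quantile normalization and 0.0278 under trimmed mean rescaling, and 0.0197 for the mean of both guides under quantile normalization. With single libraries left out, Pgam1 with guide 1 ran from -0.0446 to 0.0125, Ldha with guide 1 from -0.0117 to 0.0727, Hk2 with guide 2 from -0.00560 to 0.147 and Epas1 with guide 2 from -0.117 to 0.00483. The cause of these shifts was not tested. Same-numbered libraries of different groups correlated in their deviations between -0.11 and 0.24, and differently numbered ones between -0.23 and 0.16. Of the same-numbered pairs 2 of 9 were over 0.1, both between the knockouts (0.24 for replicate 1 and 0.21 for replicate 3). Closest to their own number were 7 of 9 libraries. The main model held no block because the labels do not say that the numbers pair libraries. Whether same-numbered libraries share a batch was not tested. With the replicate block, 14 of the genes were higher and 10 lower for the mean of both guides, 13 and 7 for guide 2 against control, 12 and 10 for guide 1 against control, and 9 and 9 for guide 2 against guide 1. FPKM hides depth, so counting error in low genes such as Gbe1, Aldoc, Pdk4 and Vldlr is unknown.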

Other observations

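Gapdh, the glycolytic dehydrogenase often used as a loading standard, varied more within groups than between them. It stood at 13.3, 49.4 and 13.4 FPKM with guide 2, 57.9, 13.2 and 14.7 FPKM with guide 1, and 9.94, 12.0 and 17.1 FPKM in controls, and passed with neither guide (limma adjusted p = 0.333 and 0.256). A pseudogene row, Gapdh-ps15, stood at 58.1, 57.3 and 59.0 FPKM with guide 2, 61.1, 63.3 and 62.8 FPKM with guide 1, and 48.9, 49.1 and 51.3 FPKM in controls, above Gapdh itself in all 9 libraries. Whether reads of near-identical copies were divided differently between libraries was not tested.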
